A study of Rattus norvegicus with 6 samples.

Results

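The genes described here encode the proteasome, the protease complex that degrades ubiquitin-tagged proteins, together with its regulators and assembly factors. They were taken by symbol from a table of raw read counts, as every row whose symbol began with Psm, a letter from a to g and a digit, and whose symbol held no hyphen. This rule found 46 genes among the 20264 rows of the table, of which 14882 had at least 1 count. They were grouped as core subunits (15 genes), immunoproteasome subunits (Psmb8 and Psmb9), cap subunits (17 genes), activators and inhibitors (5 genes) and assembly factors (6 genes). The remaining gene, Psmc3ip, matches by name only, since its product acts in meiotic recombination, and it was kept apart. Psmb10, Psmb11, Psmd9 and Psme3 were not analysed here.

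The 6 RNA-seq libraries came from primary nucleus pulposus cells (NPCs) of the tail discs of male wild type Sprague-Dawley rats. All of them had been treated with TBHP (tert-butyl hydroperoxide), an oxidant used to induce senescence. The TBHP group (3 libraries) received nothing else, and the TBHP+FGF21 group (3 libraries) also received recombinant FGF21, so that there is no untreated group and the effect of TBHP itself cannot be read. The treatment labels name FGF21 for replicate 1 of the TBHP+FGF21 group, FGF22 for replicate 2 and FGF23 for replicate 3, whereas the design text gives FGF21 for the whole group. The question was how FGF21 alters the transcriptome of cells under oxidative stress. The labels call the samples biological replicates but do not say whether they came from separate animals or cultures, and p-values measure the spread between these libraries only.

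The proteasome consists of a barrel-shaped core particle and a cap. The core is made of outer rings of alpha subunits (Psma genes) and inner rings of beta subunits (Psmb genes), and Psmb5, Psmb6 and Psmb7 encode the subunits that cut proteins. Under interferon, cells replace these by Psmb8, Psmb9 and Psmb10, which gives the immunoproteasome and favours peptides for MHC class I. The cap holds a ring of ATPases (Psmc genes) that unfold the substrate and non-ATPase subunits (Psmd genes) that bind and trim ubiquitin chains. When proteasome activity drops, the transcription factor NFE2L1 raises most subunit genes together, and its relative NFE2L2 does so under oxidative stress, both through the antioxidant response element.

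Short upstream windows are shown for the members whose promoters hold the letters of that element, since this is where NFE2L1 and NFE2L2 are known to act. RefSeq's promoters (build GRCr8, 250 bases before to 50 bases after the start) were available for 42 of the 46 members. The letters TGACNNNGC, read on both strands, occurred in 7 of these 42 promoters (16.7%), in 14.5% of the promoters of genes tested and in 12.1% of all 33469 promoters. The members were Psma3, Psmb2, Psmb5, Psmb6, Psmd1, Psmd3 and Psme4, and the match lay before the start of the promoter entry in all but Psmd3. In Psma3 and Psmb6 that start lay inside the RefSeq gene span, so their windows fall within the span. In the windows, read 5′ to 3′ along the gene, capitals mark the match, which appears as its reverse complement in Psma3 and Psme4.
Psma3 (chr6:95219727-95219748, + strand, within the RefSeq gene span): tctgtggcctGCCGGGTCAgca
Psmb2 (chr5:144254980-144255008, + strand): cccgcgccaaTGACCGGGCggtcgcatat
Psmb5 (chr15:32047421-32047449, - strand): cgtgaagctgTGACGTCGCggcgttgccc
Psmb6 (chr10:55737854-55737882, + strand, within the RefSeq gene span): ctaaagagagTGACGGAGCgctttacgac
Psmd1 (chr9:94157796-94157824, + strand): accagatctaTGACCTCGCgagaattata
Psme4 (chr14:108706578-108706606, + strand): ggagaaagccGCTGGGTCAcctcctcgcc

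For the interferon type of element, the letters GAAA, 2 further bases and GAAA again were searched on both strands, and 6 of the 42 promoters (14.3%) held them against 2.79% of those of genes tested and 3.92% of all promoters. They were those of Psma4, Psmb3, Psmb8, Psmd7, Psme2 and Psmg4, and in Psmb8 and Psmg4 the match did not lie wholly before the start. The window of Psme2, an activator subunit induced by interferon, is shown as the example, with the match in capitals.
Psme2 (chr15:33052785-33052814, - strand, within the RefSeq gene span): cctggagagtGAAAGCGAAAgctggggctg

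CCAAT, the box bound by NF-Y, was found on either strand in 21 of the 42 promoters (50%) and in 37.5% of all promoters. By group it was in 9 of the 14 core promoters (64.3%), both immunoproteasome promoters, 5 of 14 cap promoters (35.7%), 2 of 5 activator promoters (40%) and 2 of 6 assembly promoters (33.3%). These matches describe letters in a window and are not binding sites.

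Levels are read counts scaled to library size (CPM, by TMM scaling), and they are compared between libraries but not between genes, because transcript lengths were not used. Each library held between 18277732 and 22426190 counts, and the members together took between 0.386% and 0.452% of them. The tested members had between 236 counts (Psmb9) and 53245 counts (Psmd2) in the 6 libraries together. The libraries did not fall apart by group over all genes. The chi-square per gene between the counts of a pair of libraries, which would be near 1 from sampling noise alone, was 7.36, 9.52 and 8.53 between replicate 2 with FGF21 and the TBHP libraries, but 22.9 and 44.5 between it and the other libraries with FGF21. Replicate 3 with FGF21 stood apart from each of the others (22.9 to 58.3). Every library weighed on the comparison: of all genes, 490 were lower with FGF21 at an unadjusted p under 0.05, 182, 123 and 955 when replicate 1, 2 or 3 with TBHP alone was left out, and 155, 1390 and 110 when that replicate with FGF21 was left out. Of 13 genes of nucleus pulposus and notochordal cells with a row, Tbxt, Shh and Noto had no count in any library, while Krt8, Cd24, Car3, Foxa2 and Krt18 had 418, 200, 225, 32 and 5 counts in all. The matrix gene Acan was at 2681, 2506 and 2939 CPM with TBHP alone and at 3476, 2864 and 4355 CPM with FGF21. Acan, Foxf1 and Sox9 were highest in replicates 1 and 3 with FGF21. Krt8 went the other way, at 3.52, 3.67 and 4.27 CPM with TBHP alone and at 3.17, 3.02 and 2.31 CPM with FGF21. Foxa2 was also lower in every library with FGF21 and Car12 higher, both with few counts (32 and 41 in all). In Cd24, Car3 and Col2a1 the groups overlapped. The part of these markers in the results was not tested. The summed level of 6 fibroblast and annulus genes, nearly all of it Col1a1, lay between 39610 and 43840 CPM with TBHP alone and between 29360 and 41480 CPM with FGF21. The list did not move together. Pdgfra was at 88.7, 92.3 and 96.4 CPM with TBHP alone and at 127.9, 89.9 and 146.8 CPM with FGF21. Dcn, Lum and Thy1 had libraries with FGF21 both above and below the range with TBHP alone. The part of these genes in the results was not tested.

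With FGF21, no proteasome gene changed beyond the spread between libraries after adjustment for all genes. Of the 46 members, 44 had enough counts to be tested, and none had an adjusted p under 0.05 in the quasi-likelihood test of edgeR, adjusted by Benjamini-Hochberg over 11426 genes. In the whole table this was reached by 0.00875% of the genes, that is by 1 gene. The threshold of the study, a change of more than 1 on the log2 scale in either direction at an unadjusted p under 0.05, was passed by no member and by 0.534% of all genes. At an unadjusted p under 0.05 alone, 2 members were lower in the TBHP+FGF21 group, Psma3 and Psmc6, and none was higher. Over all genes 4.29% were lower and 4.63% were higher at this level, so that the members' share of lower genes (4.55%) lay near the background.

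The direction of the small differences was mostly downward. The log2 fold change was below 0 in 36 of the 44 members (81.8%), against 51.1% of all genes, and its median was -0.10 in the members and -0.0052 in all genes. With 1 library left out, the members' median lay between -0.03 (without replicate 1 with FGF21, where 28 of 44 were lower) and -0.14 (without replicate 3 with TBHP alone). It ranged from -0.30 (Psmb7) to 0.18 (Psmb9), with standard errors between 0.085 and 0.27. Many of these genes vary together between libraries, so their signs are not separate observations. In bulk RNA, fewer cells of a type and less RNA per cell cannot be told apart. The plot of the change of each gene shows the order within each group.

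**Figure D1:**
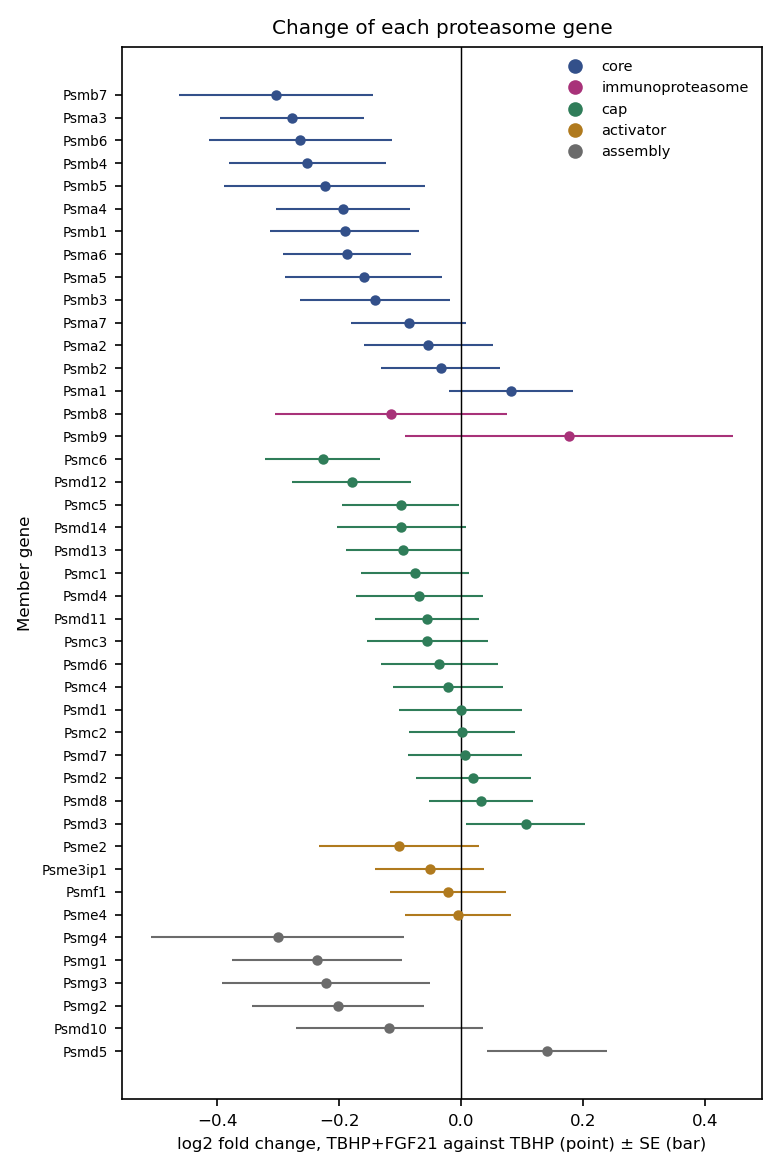
Log2 fold change of 43 tested proteasome genes (Psmc3ip left out) with FGF21 against TBHP alone by edgeR (points, horizontal axis) with the standard error (bars), ordered by group and value. Core and assembly genes lie mostly to the left of 0, with Psmb7 at -0.30 and Psmg4 at -0.30, and cap genes lie closer to 0.

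Among the core subunits, 13 of the 14 tested genes had a log2 fold change below 0, with a median of -0.19, and 1 of them, Psma3, had an unadjusted p under 0.05. With 1 library left out, this median lay between -0.10 (without replicate 2 with TBHP alone) and -0.27 (without replicate 3 with TBHP alone). Psma3, an alpha subunit of the outer ring, was at 102.3, 112.7 and 88.6 CPM in the libraries with TBHP alone (replicates 1, 2 and 3, in this order here and throughout) and at 75.5, 95.6 and 79.2 CPM with FGF21. The groups overlapped, because replicate 2 of the TBHP+FGF21 group was above replicate 3 of the TBHP group. The means were 101.2 ± 12.1 and 83.4 ± 10.7 CPM (SD, n = 3 each), a log2 fold change of -0.28 (standard error 0.12, unadjusted p = 0.0360, adjusted p = 0.553 by edgeR). The single core gene above 0 was Psma1, another alpha subunit, at 65.2 ± 5.87 CPM with TBHP alone and 68.9 ± 5.79 CPM with FGF21, a log2 fold change of 0.08. Psma8, the alpha subunit of spermatocytes, had 1 count in all libraries together, did not pass the filter on low counts and was not tested. For scale, 3 counts, the upper limit that a count of 0 allows, correspond to between 0.134 and 0.164 CPM (counting error only).

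The 3 standard catalytic subunits had the same pattern over the libraries. Psmb5, which encodes the chymotrypsin-like subunit, was at 35.0, 29.2 and 20.9 CPM with TBHP alone and 22.4, 27.0 and 23.3 CPM with FGF21. Psmb6, the caspase-like subunit, was at 99.3, 98.7 and 69.8 CPM with TBHP alone and 62.8, 88.1 and 72.0 CPM with FGF21. Psmb7, the trypsin-like subunit, was at 56.5, 53.0 and 34.0 CPM and at 37.1, 42.0 and 37.0 CPM. In each of them replicates 1 and 2 of the TBHP group were the highest libraries, while replicate 3 of that group was below at least 1 library with FGF21, so the groups overlapped. Their log2 fold changes were -0.22 for Psmb5, -0.26 for Psmb6 and -0.30 for Psmb7 (adjusted p 0.639, 0.572 and 0.559 by edgeR). Without replicate 3 with TBHP alone these were -0.40, -0.41 and -0.49, while they came nearest to 0 at -0.04 for Psmb5 and -0.16 for Psmb7 without replicate 1 with TBHP alone and at -0.15 for Psmb6 without replicate 1 with FGF21. The spread within the TBHP group was wider than the difference between the means of Psmb5, 28.4 ± 7.11 CPM (SD, n = 3) with TBHP alone and 24.2 ± 2.48 CPM (SD, n = 3) with FGF21. Of the 4 core genes whose windows are printed above, Psma3 was at -0.28, Psmb6 at -0.26, Psmb5 at -0.22 and Psmb2 at -0.03. The members outside the core whose promoters hold the same letters were Psmd1 at -0.0014, Psme4 at -0.0051 and Psmd3 at 0.11.

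**Figure D2:**
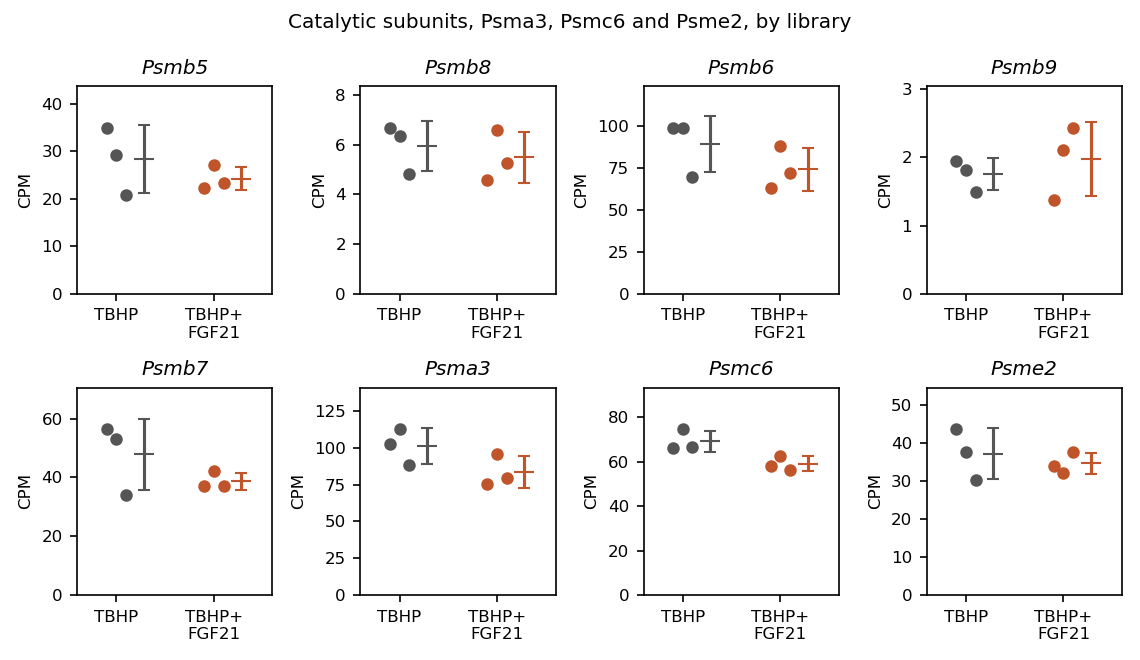
CPM (vertical axes, from 0) in each library of the TBHP group (grey) and the TBHP+FGF21 group (orange) for the catalytic subunits, Psma3, Psmc6 and Psme2, with the mean and SD (n = 3) beside the points. The groups overlap in every panel except Psmc6, whose 3 libraries with FGF21 (56.3 to 62.8 CPM) lie below the 3 others (66.1 to 74.8 CPM).

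The immunoproteasome subunits had few counts and no difference past the test. Psmb8 held between 97 and 140 counts per library, which was 6.70, 6.35 and 4.83 CPM with TBHP alone and 4.60, 6.61 and 5.28 CPM with FGF21 (log2 fold change -0.12, standard error 0.19, adjusted p = 0.837 by edgeR). Psmb9 held between 29 and 56 counts, which was 1.95, 1.81 and 1.5 CPM with TBHP alone and 1.37, 2.11 and 2.44 CPM with FGF21 (log2 fold change 0.18, standard error 0.27, adjusted p = 0.824 by edgeR). For both genes the libraries of the groups were interleaved. In the RefSeq annotation they lie on chromosome 20 in the order Tap2, Psmb8, Tap1, Psmb9, beside the genes of the peptide transporter that serves MHC class I.

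The exchange of catalytic subunits was followed as a ratio within each library, which does not depend on scaling. The log2 ratio of Psmb8 to Psmb5 was -2.23 ± 0.14 (SD, n = 3) in the TBHP group and -2.15 ± 0.12 (SD, n = 3) in the TBHP+FGF21 group (difference 0.08, two-sided exact permutation test, p = 0.6). For Psmb9 to Psmb6 it was -5.67, -5.77 and -5.54 in the TBHP group and -5.52, -5.39 and -4.88 in the TBHP+FGF21 group. The groups did not overlap for this ratio, and its difference of 0.40 had p = 0.1 by the same exact permutation test, the smallest that 3 libraries against 3 allow, and 0.2 after adjustment over the 2 ratios. Leaving out the third library with FGF21, which held the highest value, gave 0.21. With a pseudocount of 1 CPM the difference was 0.35 and the exact permutation p was 0.2, so that the groups were no longer separate. The gap between them had been narrow, from -5.54 to -5.52.

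Blood cells, which are rich in immunoproteasome, were checked by 10 marker genes. Ptprc, Adgre1, C1qa and C1qb had no count in any library, and the summed level of the list lay between 32.2 and 37.9 CPM with TBHP alone and between 26.7 and 32.9 CPM with FGF21, nearly all of it Cd14. Of 4 endothelial marker genes, Cdh5 and Kdr had no count, and Tek and Vwf had 38 and 58 counts in all.

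Among the cap subunits the median log2 fold change was nearer to 0 than in the core, a difference that was not tested. Of 17 genes, 12 had a log2 fold change below 0 and 5 above, with a median of -0.06. Psmc6, an ATPase of the ring, was at 66.1, 74.8 and 66.7 CPM with TBHP alone and at 58.3, 62.8 and 56.3 CPM with FGF21. All 3 libraries with FGF21 were below all 3 without, and the log2 fold change was -0.23 (standard error 0.094, unadjusted p = 0.0323, adjusted p = 0.553 by edgeR). Together with Psme3ip1 it was 1 of 2 members whose groups did not overlap and were lower with FGF21, and no member was so separated upward, against 5.00% and 4.90% of all genes. The largest cap value above 0 was that of Psmd3, a subunit of the lid, at 188.7 ± 8.92 CPM with TBHP alone and 203.0 ± 18.99 CPM with FGF21, a log2 fold change of 0.11 (adjusted p = 0.705 by edgeR). Psmd2, the scaffold that docks ubiquitin shuttles and the member with the most counts, was at 406, 432 and 415 CPM with TBHP alone and 406, 403 and 462 CPM with FGF21, a log2 fold change of 0.02. The remaining cap genes lay between -0.18 (Psmd12, a lid subunit) and 0.03 (Psmd8).

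The 4 tested activators and inhibitors of the core varied little except Psme2. Their median ratio of the highest to the lowest library was 1.13, against 1.38 in the core genes, 1.195 in the cap genes and 1.36 in all genes. In Psme2 this ratio was 1.45. Psme4, the large activator of the nucleus, was at 80.3 ± 3.71 CPM (SD, n = 3) with TBHP alone and 80.0 ± 2.43 CPM (SD, n = 3) with FGF21, a log2 fold change of -0.0051 (standard error 0.087). Psmf1, which encodes an inhibitor of the core, was at 51.5 ± 3.65 and 50.7 ± 2.77 CPM. Psme2 was at 43.8, 37.8 and 30.3 CPM with TBHP alone and at 34.1, 32.3 and 37.7 CPM with FGF21, and its log2 fold change of -0.10 became 0.03 without replicate 1 of the TBHP group. Psme3ip1, named after its values were seen, whose product binds the nuclear activator encoded by Psme3, was at 42.6 ± 1.83 and 41.1 ± 0.18 CPM, a log2 fold change of -0.05. Its groups did not overlap, but the gap was narrow, from 41.3 CPM (lowest with TBHP alone) to 41.24 CPM (highest with FGF21). Psme1, the partner of Psme2 in an activator ring that holds both subunits, had 2, 0 and 3 counts in the TBHP group and none in the TBHP+FGF21 group and was not tested. RefSeq lists pseudogenes named after 18 of the members, Psme1 and Psme2 among them. Reads that match both a gene and such a copy cannot be assigned with certainty, and how alike the copies are was not measured.

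Among the assembly factors, the 4 Psmg genes had log2 fold changes between -0.20 (Psmg2) and -0.30 (Psmg4). Psmg1, which with Psmg2 helps to build the alpha ring, was at 35.1, 43.1 and 28.6 CPM with TBHP alone and at 28, 32.9 and 29.7 CPM with FGF21 (log2 fold change -0.24, standard error 0.14, adjusted p = 0.581 by edgeR). Psmg4, also named after its values were seen, which with Psmg3 acts at the same step, was at 17.8, 18.1 and 10.2 CPM with TBHP alone and at 11.1, 15.0 and 11.2 CPM with FGF21. Its range of 1.78-fold between libraries was the widest of the tested members, and its lowest library belonged to the TBHP group. Of the chaperones of the ATPase ring, Psmd10 was at -0.12 and Psmd5 at 0.14, the latter with 50.9 ± 4.79 CPM with TBHP alone and 56.1 ± 2.48 CPM with FGF21 (adjusted p = 0.628 by edgeR). Psmc3ip, the match by name, was at -0.13.

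**Figure D3:**
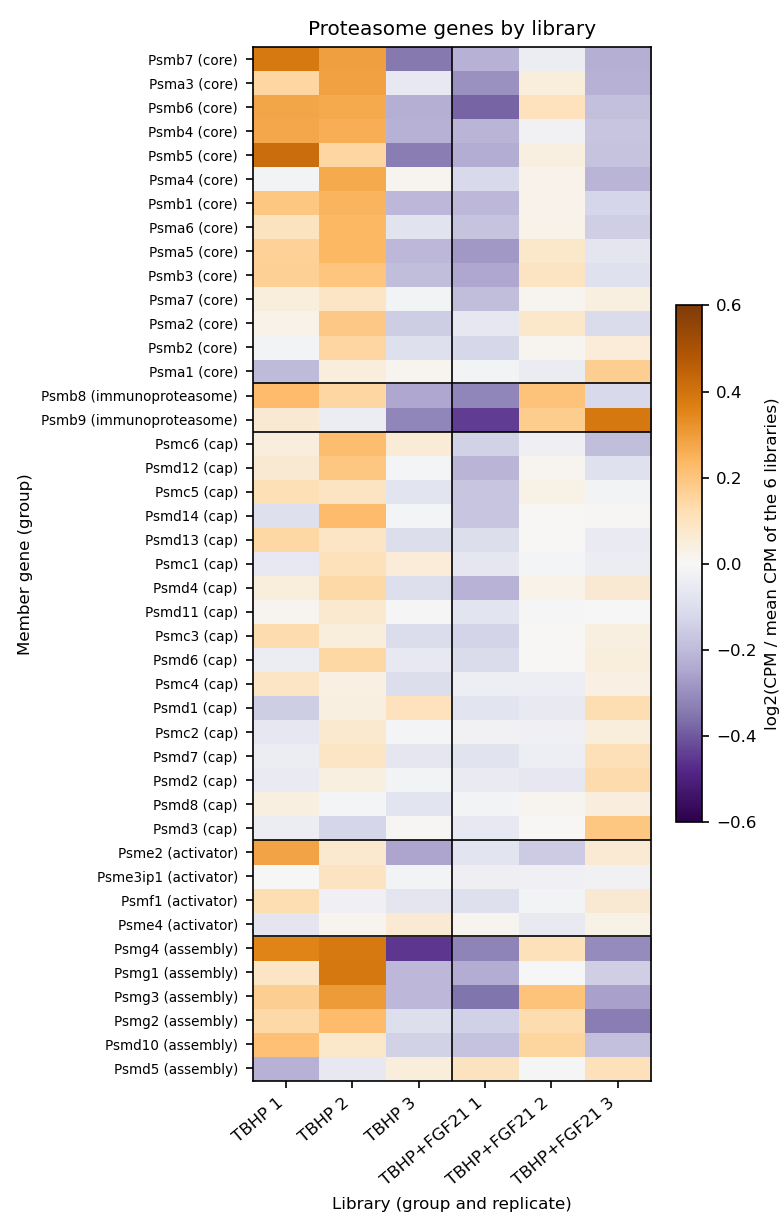
Level of 43 tested proteasome genes (rows, by group) in each library (columns), as log2 of the CPM over the mean CPM of the 6 libraries (colour scale from -0.6 to 0.6). Core and assembly genes are high in the first 2 libraries of the TBHP group and low in replicate 3 of that group and replicates 1 and 3 of the TBHP+FGF21 group, while cap and activator genes are paler.

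The members of the core moved together between libraries, and this movement crossed the groups. The median over the 14 core genes of the log2 level relative to the mean of the 6 libraries was 0.16, 0.24 and -0.17 with TBHP alone and -0.21, 0.02 and -0.14 with FGF21. Replicate 3 of the TBHP group therefore lay among the libraries with FGF21, and replicate 2 of the TBHP+FGF21 group lay between the others. The 3 highest libraries were replicates 1 and 2 of the TBHP group and replicate 2 of the TBHP+FGF21 group in 10 of 14 core genes, 5 of 6 assembly genes and 3 of 17 cap genes. The same was true of 15.6% of all genes tested. This pattern was chosen after the values had been seen and is a description.

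Other genes with the same course were those of cytosolic ribosomal proteins, in which 56 of 63 tested genes had these 3 libraries highest. Their summed level was 34210, 33930 and 25210 CPM with TBHP alone and 23650, 29770 and 24750 CPM with FGF21. The same 3 libraries were also highest in the share of reads ambiguous between genes (2.01% to 2.09%, against 1.72% to 1.83% in the others), of multimapping reads (6.86% to 7.03% against 6.27% to 6.64%) and of unmapped reads (1.34% to 1.40% against 1.24% to 1.28%). The part of these measures and of the ribosomal protein genes in the proteasome values was not tested. The cap genes did not follow to the same extent, as the log2 ratio of summed cap to summed core CPM was 0.97, 0.96 and 1.21 in the TBHP group and 1.21, 1.06 and 1.26 in the TBHP+FGF21 group.

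**Figure D4:**
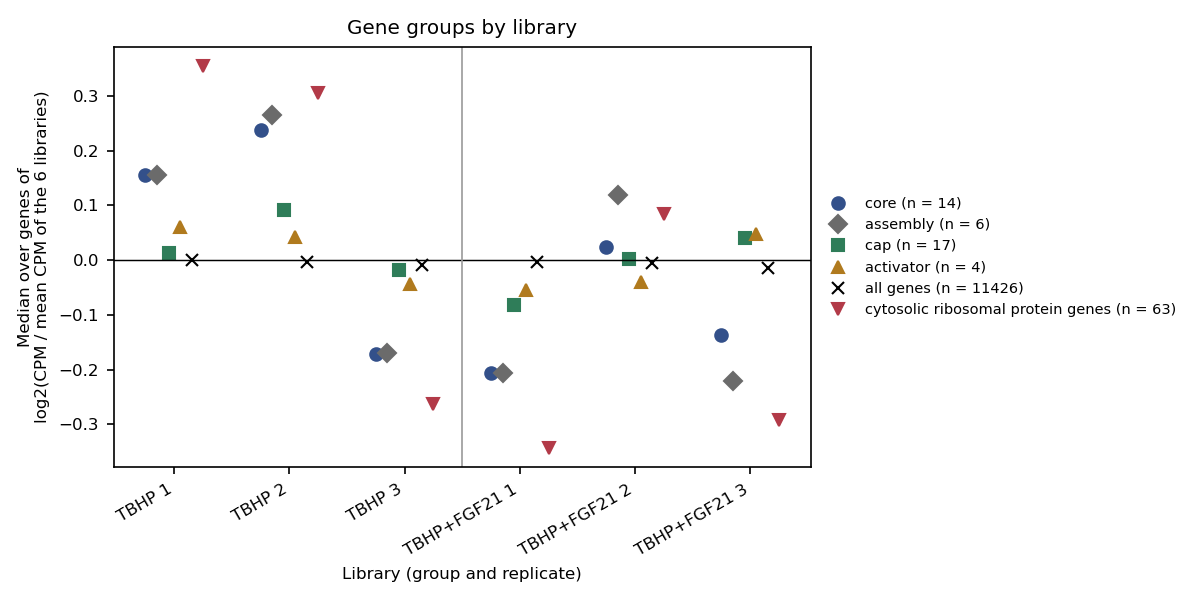
Median over genes of log2 of the CPM over the mean CPM of the 6 libraries (vertical axis) in each library (horizontal axis) for core, assembly, cap and activator genes, all genes tested and cytosolic ribosomal protein genes. Core genes follow the ribosomal protein genes at a smaller amplitude (0.16, 0.24, -0.17, -0.21, 0.02 and -0.14 for the core), and the median of all genes stays near 0.

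Which library was left out decided how many members passed an unadjusted p of 0.05. Without replicate 2 of the TBHP+FGF21 group, 11 of 44 members were lower at this level (25%) and none was higher, against 12.0% and 11.6% of all genes. In that fit Psma3 had an adjusted p of 0.0480 by edgeR and a log2 fold change of -0.38, which made it the single member called in any of these fits, where 3.72% of all genes were called lower. Without replicate 3 of the TBHP group, 11 members were again lower, against 8.26% of all genes, and none had an adjusted p under 0.05. The members that passed in both of these fits were Psma3, Psma6, Psmb4, Psmb6, Psmb7, Psmc6 and Psmg4. Both fits share most of their libraries, so they are not separate observations, and the share of all genes passing both was not counted. With any other library left out, at most 1 member passed an unadjusted p of 0.05.

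**Figure D5:**
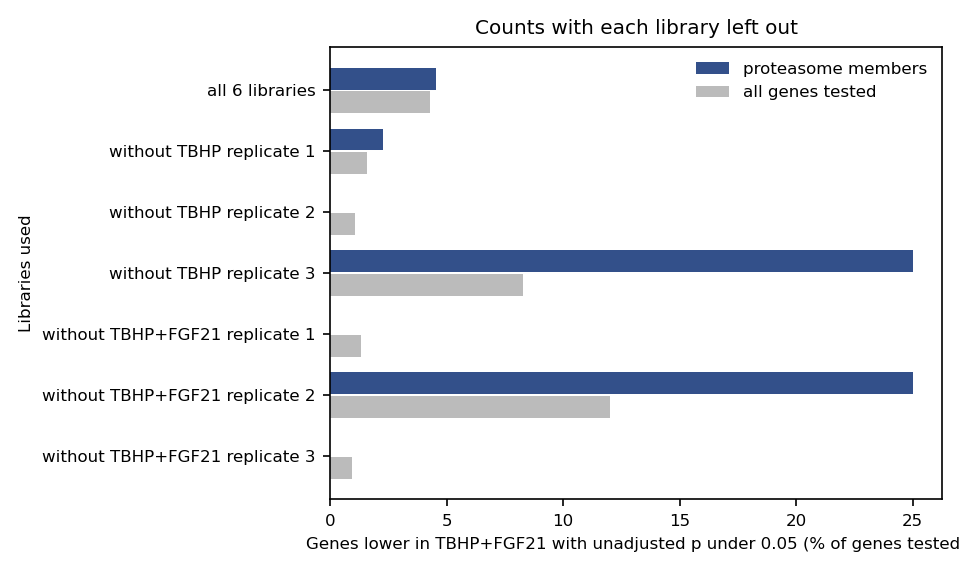
Share of genes (horizontal axis, percent of genes tested) that were lower in the TBHP+FGF21 group with an unadjusted p under 0.05 by edgeR, with all 6 libraries and with each library left out (rows), for the proteasome members (blue) and all genes (grey). The members' share is 4.55% with all libraries and rises to 25% when replicate 2 with FGF21 or replicate 3 with TBHP alone is left out.

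Genes that work with the proteasome were followed as a list of 36 partners, of which 33 had a row and 32 were tested. At an unadjusted p under 0.05, 4 were lower in the TBHP+FGF21 group (12.5%, against 4.29% of all genes) and none was higher (against 4.63%), while 14 had a log2 fold change above 0 and 18 below, with a median log2 fold change of -0.02, and none had an adjusted p under 0.05 by edgeR. The 4 genes were Uchl5, Usp14, Ubqln2 and Rps27a, of which the last 3 were chosen for naming after their values were seen. Uchl5, a deubiquitinase that docks on the cap, was at 8.88, 9.84 and 7.22 CPM with TBHP alone and at 5.26, 7.04 and 4.19 CPM with FGF21. Its groups did not overlap, with a narrow gap from 7.22 to 7.04 CPM, and its log2 fold change was -0.66 (standard error 0.20, unadjusted p = 0.00668, adjusted p = 0.553 by edgeR). Usp14, another deubiquitinase that docks on the cap, was at 92.8, 98.9 and 84.9 CPM with TBHP alone and at 75.4, 83.6 and 75.4 CPM with FGF21, again without overlap (log2 fold change -0.24). Over all genes, 5.00% were lower without overlap. Ubqln2, a shuttle that carries ubiquitinated proteins, was at -0.26, and Rps27a, which encodes a ribosomal protein fused to ubiquitin, at -0.37. Rps27a was at 473.6, 456.9 and 299.5 CPM with TBHP alone and at 299.7, 368.8 and 284.5 CPM with FGF21. This was the course of the ribosomal protein genes, among which it was also counted.

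The regulators of proteasome genes lay near 0. Nfe2l1 was at 377.0 ± 20.4 CPM (SD, n = 3) with TBHP alone and 380.9 ± 17.8 CPM (SD, n = 3) with FGF21, a log2 fold change of 0.02, and Nfe2l2 was at 184.5 ± 20.7 and 179.4 ± 7.42 CPM, a log2 fold change of -0.04. Both act largely through the stability and processing of their proteins, which were not measured. The cap subunits outside the Psm names were Adrm1, a ubiquitin receptor, at 0.03, and Sem1, a small lid subunit, at -0.35 (standard error 0.20, adjusted p = 0.572 by edgeR). Sem1 was at 80.3, 87.2 and 49.0 CPM with TBHP alone and at 46.1, 69.5 and 54.8 CPM with FGF21, with the course of the core genes. Pomp, the maturation factor of the core, was listed at between 0 and 0.181 CPM and was not tested.

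Of 15 genes listed for MHC class I antigen processing, 11 were tested, and 9 had a log2 fold change above 0, with a median of 0.03. The list also held Ciita and Cd74, which belong to MHC class II, and Cd74 was not tested. Ciita was among the 9, at 0.05, as were B2m and Erap1, both at 0.003. The share below 0 was 18.2%, against 51.1% of all genes. Without replicate 1 with TBHP alone, 6 genes of the list were above 0 and 5 below. Tapbp, which links MHC class I to the peptide transporter, was the single gene of this list at an unadjusted p under 0.05 by edgeR. Over all genes 4.63% were higher and 4.29% lower at this level. Tapbp was at 35.0, 30.7 and 33.5 CPM with TBHP alone and 36.5, 36.4 and 48.7 CPM with FGF21 (log2 fold change 0.30, adjusted p = 0.553 by edgeR). Irf1, the interferon-induced factor that drives Psmb8 and Psmb9, was at 5.98 ± 0.24 CPM and 7.47 ± 1.05 CPM (log2 fold change 0.32, adjusted p = 0.553 by edgeR). Tap1 was at 0.05, and its neighbour Tap2 had 2 counts in replicate 1 of the TBHP+FGF21 group and none elsewhere. Canx, a chaperone of MHC class I, was the gene of this list with the smallest p below 0, at -0.19 (adjusted p = 0.559 by edgeR).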

How the data were processed

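RNA from 6 samples of rat NPCs was sequenced by the authors. The submitters' processing notes name STAR and featureCounts; their versions, the genome build and the annotation are not given in the sources used here. The deposited table holds estimated counts per gene, which are whole raw read counts except in 22 rows that hold fractional values, and these were rounded up. The per-sample files deposited by the authors hold raw counts without strand and for each strand. In these files the ratio of one strand's counts to the other's lay between 0.978 and 0.986, so reads of overlapping or antisense genes cannot be told apart. Counts were filtered with filterByExpr, scaled by TMM and tested with edgeR 4.0.16 (quasi-likelihood test, R 4.3.3) with Benjamini-Hochberg adjustment over 11426 genes, in the 3 TBHP and 3 TBHP+FGF21 libraries, with no covariate. CPM are relative to the TMM-scaled library sizes. The test was tried on simulated data first. Ratios of subunits were compared by a two-sided exact permutation test, and those that need Psmb10 or Psme3 could not be run. Alternatives were DESeq2 1.42.0 and its size factors, limma-voom (limma 3.58.1), other filters, the per-sample files, a replicate block, leaving out each library and, chosen after seeing the data, the TBHP group against the library labelled FGF21 alone. Genes named by rule were the catalytic subunits, Psme1 to Psme4, Psmf1, the member with the smallest p in each direction in each group, the members with the highest and lowest mean level, those at an unadjusted p under 0.05 or not tested, and Nfe2l1, Nfe2l2, Pomp, Sem1, Adrm1, Tap1, Tap2, Irf1 and the partner or MHC class I gene with the smallest p in each direction, 1 of which is not reported here. Other members are named as ends of a range, as holders of a motif or in lists of 11 or fewer that passed, after their values were seen. The members and lists were chosen with earlier results of these data known. Limits from counts cover counting error only.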

Additional observations from a re-analysis of the deposited data

Results flagged for a closer look

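A row outside the members carried counts where its parent gene had almost none. Psme1-ps1, left out of the members for its hyphen, held 56 counts in the 6 libraries together, above the 3 counts that a count of 0 allows. By library, its counts were 5, 16 and 7 with TBHP alone and 9, 10 and 9 with FGF21. Psme1 itself had 5 counts, all in the TBHP group. Whether reads of Psme1 were assigned to the copy was not tested.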

How the results depend on the processing

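The number of members lower at an unadjusted p under 0.05 (2) was 5 with the replicate block (11.4%, against 7.53% of all genes), 9 with the library labelled FGF21 alone (20.5% against 8.06%) and between 0 and 11 with 1 library left out; those with an adjusted p under 0.05 were between 0 and 1. Same-numbered libraries did not deviate together in every pair (correlations -0.12, 0.21 and 0.15), so the numbers were not taken as pairs, and no member had an adjusted p under 0.05 with the block. With the library labelled FGF21 alone, the median log2 fold change was -0.21 for all members, -0.36 for the immunoproteasome and 0.07 for the MHC class I list, and the signs of Psmb9 (-0.34), Psme4 (0.02), Psmd2 (-0.04), Nfe2l2 (0.03) and Adrm1 (-0.13) turned. Without a filter the median of the MHC class I list was 0.06 and Psme4 was at 0.01. Psme4 was at 0.00 with the CPM filter, and Psmf1 at 0.03 with the counts of the fourth strand column. MHC class I genes at an unadjusted p under 0.05 (1) numbered 2 with that column and 0 with the library labelled FGF21 alone. With 1 library left out, this count lay between 0 and 4, that of the partners between 1 and 10, and the medians between -0.07 and 0.01 (cap), -0.03 and -0.01 (partners) and 0.03 and 0.08 (MHC class I). Signs also turned with 1 library left out in Psmb8 (-0.26 to 0.01), Psmb9 (-0.00 to 0.39), Psme2 (-0.22 to 0.03), Psme4 (-0.03 to 0.03), Psmf1 (-0.06 to 0.04), Psmd2 (-0.04 to 0.06), Nfe2l1 (-0.03 to 0.05), Nfe2l2 (-0.10 to 0.06), Adrm1 (-0.02 to 0.11) and Tap1 (-0.03 to 0.13). The cause was not tested. Where a group was left with 1 library, that library was assumed to vary like the others. Depth limits Psma8, Psme1 and Pomp, which lay near the 3-count limit, and Psmb9, whose standard error of 0.27 was the widest.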

Other observations

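Several genes that nearly every such cell uses, or that are usually transcribed with a partner, were close to 0 while the partner was not. Pomp was listed at between 0 and 0.181 CPM, Psme1 at between 0 and 0.141 CPM beside Psme2 at between 30.3 and 43.8 CPM, and Tap2 at between 0 and 0.0948 CPM beside Tap1 at between 26.5 and 33.2 CPM. Col1a2 lay between 0.391 and 0.771 CPM although Col1a1 lay between 27870 and 42460 CPM. These levels describe the table, and their cause was not tested.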
